A study of Mus musculus with 7 samples.

Results

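The genes described are 34 members of the ATF4 branch of the integrated stress response, out of 31253 genes counted in the files. They are a list of named genes, and no cut on a measured value picks them out. The list holds the transcription factor Atf4, its dimer partners, the eIF2 subunit gene Eif2s1, and the kinases and phosphatase subunits that act on eIF2. It also holds known ATF4 targets other than amino acid transporters and tRNA synthetases, and the endoplasmic reticulum stress genes Xbp1 and Hspa5. Their unique molecular identifiers (UMIs, one per captured transcript) were summed in each library over the cells of a type, and all levels below are counts per 1000000 UMIs of that library and cell type (CPM).

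The integrated stress response is a shared route by which cells react to missing amino acids, misfolded protein in the endoplasmic reticulum, viral RNA or lack of haem. Each of these activates a kinase that phosphorylates the alpha subunit of the translation factor eIF2, which slows most protein synthesis while letting Atf4 mRNA be translated. ATF4 protein then raises genes that make, import and charge amino acids, and also genes that restore translation. Because ATF4 is controlled largely at translation, the amount of its mRNA does not report the amount of its protein. Slc38a2, which encodes the neutral amino acid transporter SNAT2, is itself a known ATF4 target.

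The libraries come from the aorta of mice that had eaten a high-salt diet for 3 weeks. Flox controls (Slc38a2flox/flox, 3 libraries) carry the floxed Slc38a2 gene, and endothelial knockouts (labelled Slc38a2deltaEC, 4 libraries) lack it in endothelial cells. All 7 libraries share the diet, so no normal-salt level is at hand. The labels name neither the Cre driver, the deleted exons, the age nor the sex, and do not say that each library is 1 animal, so p-values measure the spread between libraries, which may be technical.

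Of the 34 members, 30 had a promoter in the RefSeq table of mouse build GRCm38.p6; Aldh1l2, Eif4ebp1, Ppp1r15b and Cth did not. The C/EBP-ATF response element, which ATF4 binds together with a C/EBP protein, was searched as TGATGNAA on both strands in the 250 bases before each start. It was found before 8 of the 30 members (26.7%), and before 1056 of all 27025 genes in the table (3.91%). The list holds known ATF4 targets, so a higher share is in part built in and is no independent support for the list. The stretches with these matches are shown because they are the sequence feature that several members share; capitals mark the match, and where it lies on the opposite strand it reads as its reverse complement.
Asns, chr6:7693210-7693258, minus strand: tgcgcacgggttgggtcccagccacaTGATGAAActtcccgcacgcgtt
Chac1, chr2:119351023-119351082, plus strand: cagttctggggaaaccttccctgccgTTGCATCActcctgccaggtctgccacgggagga
Fgf21, chr7:45615596-45615655, minus strand: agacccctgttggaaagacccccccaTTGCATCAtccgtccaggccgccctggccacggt
Herpud1, chr8:94386291-94386350, plus strand: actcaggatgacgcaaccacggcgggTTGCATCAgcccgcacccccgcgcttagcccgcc
Jdp2, chr12:85599357-85599415, plus strand: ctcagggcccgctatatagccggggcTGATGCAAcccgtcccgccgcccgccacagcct
Nupr1, chr7:126625547-126625606, minus strand: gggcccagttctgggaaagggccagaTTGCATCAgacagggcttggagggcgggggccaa
Pck2, chr14:55540137-55540196, plus strand: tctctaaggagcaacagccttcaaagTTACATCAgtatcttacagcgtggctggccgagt
Vldlr, chr19:27216794-27216853, plus strand: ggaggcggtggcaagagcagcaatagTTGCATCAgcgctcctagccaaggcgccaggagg

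A second pair of stretches shows members with other stress elements. The endoplasmic reticulum stress element, searched as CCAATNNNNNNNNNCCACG, lay before Hspa5, which encodes the chaperone BiP, and before 0.113% of all promoters in the table. The cyclic AMP response element, searched as TGACGTCA, lay before Ppp1r15a, which encodes GADD34, and before 1.55% of promoters. Neither overlaps the C/EBP-ATF pattern. A match describes letters only and shows no binding.
Hspa5, chr2:34771999-34772069, plus strand: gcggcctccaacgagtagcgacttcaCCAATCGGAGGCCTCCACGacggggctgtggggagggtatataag
Ppp1r15a, chr7:45526269-45526306, minus strand: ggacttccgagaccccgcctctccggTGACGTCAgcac

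The libraries held 22646246 to 73102988 UMIs, and 67477 of 76359 barcodes were kept. Cells were assigned by marker genes: 1093 endothelial-like (45 to 397 per library), 16206 smooth muscle-like, 35904 fibroblast-like and 3828 macrophage-like; 6.26% to 29.0% of cells per library met no gate. The labels call the cells Goblet cells, but 0 cells had 3 or more of 7 goblet cell markers. Summed fibroblast markers, 39972 to 47317 CPM in fibroblast-like cells, stood at 678 to 2354 CPM in endothelial-like, 3399.7 to 5485 in smooth muscle-like and 403 to 2435 in macrophage-like cells, and no endothelial, smooth muscle or fibroblast marker was at 0 in all libraries of another main class. Between 68 and 218 barcodes were shared by a pair of libraries. In endothelial-like cells the targeted gene Slc38a2 stood at 435, 434 and 316 CPM in flox controls 1 to 3 and at 227, 279, 330.1 and 268 CPM in knockouts 1 to 4 (log2 fold change -0.44, SE 0.21, edgeR adjusted p 0.799). In cell types that were not targeted Slc38a2 changed by -0.43 (macrophage-like), -0.39 (fibroblast-like) and -0.09 (smooth muscle-like), with none passing; reads outside the deleted exons would not report the deletion.

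Across the 4 main cell types the members did not move as a block. Fibroblast-like cells had the highest median level for 15 of the 34 genes, macrophage-like cells for 9, and endothelial-like and smooth muscle-like cells for 5 each. Their summed level was lowest in smooth muscle-like cells, at 2311 to 3109 CPM (median 2539), against 2769 to 6096 (median 4528) in endothelial-like, 4959.5 to 7285 (median 5736) in fibroblast-like and 4820.0 to 7718 (median 6201) in macrophage-like cells. Hspa5 and Ppp1r15a weigh heavily in this sum, which says little about members at low levels. In the same order Hspa5 had medians of 862, 1688, 2820 and 3037 CPM. Those of Ppp1r15a were 257, 1310, 981 and 824 CPM. Each type was tested in edgeR against the unweighted mean log level of the other 3, with the library as a block. A gene was called at a Benjamini-Hochberg adjusted p under 0.05 over all 12801 genes tested and a change of at least 2-fold. Of the members 32 were tested; Fgf21 and Cth were too low. A type far below the rest pulls that mean down, so a gene can be called higher in a type that is not the highest.

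**Figure D1:**
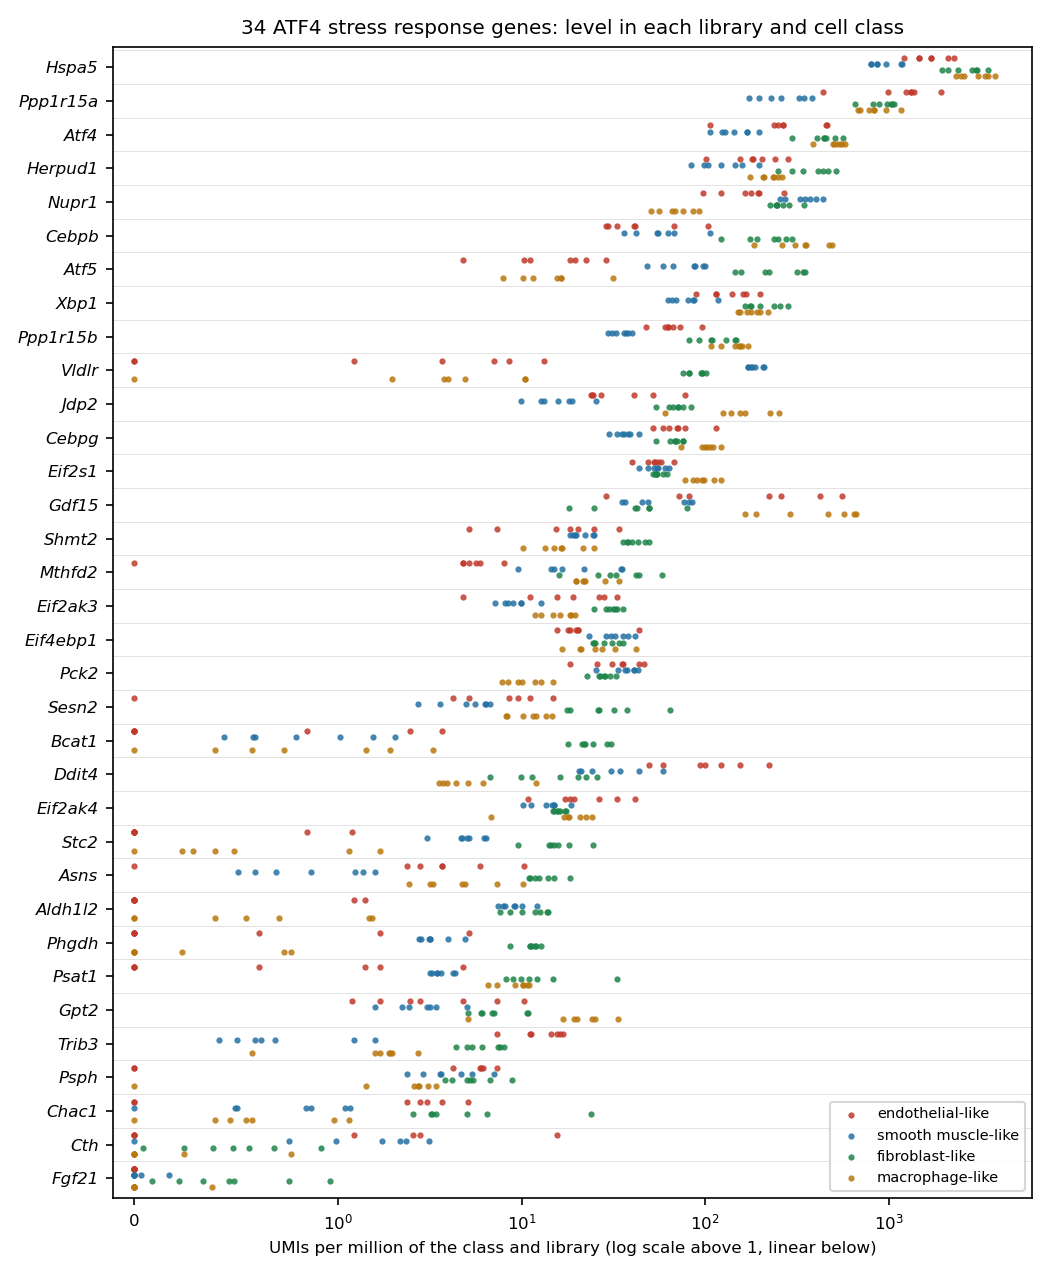
Level of each of the 34 members in each library (points) of 4 cell classes, in CPM on an axis that is logarithmic above 1 and linear below. Vldlr and Aldh1l2 are high in smooth muscle-like and fibroblast-like cells, Jdp2 in macrophage-like cells, and Ddit4 in endothelial-like cells.

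In fibroblast-like cells, the matrix-producing cells of the vessel wall, most enzymes of amino acid and folate metabolism were higher than in the other types. There 16 of 32 members were called higher and 1 lower, where 16.1% and 10.6% of all genes were. Over the members the median change was 0.93 on the log2 scale, against -0.0016 over all genes tested. Called higher were 7 of the amino acid and folate enzymes, the factors Atf5 and Cebpb, the feedback genes Chac1, Trib3 and Sesn2, the kinase gene Eif2ak3, the membrane and secreted products Vldlr and Stc2, and Herpud1.

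Among the enzymes, Bcat1, which transaminates branched-chain amino acids, was higher in fibroblast-like cells by 4.42 (log2, SE 0.20, adjusted p 5.29e-16). It stood at 17.9, 21.8 and 29.0 CPM in flox controls 1 to 3 and at 21.4, 22.3, 24.6 and 30.5 CPM in knockouts 1 to 4, and this order of libraries holds for every list of 7 values below. Every one of these values exceeded the Bcat1 level of the other 3 types in the same library. Phgdh, the first enzyme of serine synthesis from glucose, was at 12.0, 11.1, 11.8, 12.7, 11.5, 8.68 and 11.1 CPM (log2 fold change 3.53, SE 0.21). Its next step, Psat1, was called by a smaller difference of 1.71. Phgdh varied little between libraries, but its difference between types depended on the cells kept: limited to 10% mitochondrial counts it was 5.45 here.

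Asns makes asparagine and is a standard readout of ATF4. It stood at 12.4, 11.1, 18.4, 15.0, 14.0, 11.8 and 11.0 CPM in fibroblast-like cells (2.38, SE 0.15) and at most at 1.59 CPM in smooth muscle-like cells. The mitochondrial folate enzymes also stood out: Aldh1l2, which oxidises formyl-tetrahydrofolate, was at 10.02, 12.6, 8.70, 14.0, 11.9, 13.7 and 7.68 CPM (2.78, SE 0.22), and Mthfd2 and Shmt2 were higher by 1.18 and 1.11. Bcat1, Phgdh, Asns and Shmt2 were each highest in fibroblast-like cells in 7 of 7 libraries. Psph, the last step of serine synthesis, and Gpt2, Pck2 and Cth were not called.

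The regulators with a fibroblast-like excess included Atf5, a factor related to Atf4, at 347, 314, 157, 339, 223, 210.4 and 144 CPM (3.19, SE 0.13). Cebpb, a dimer partner of ATF4, was higher by 1.20 (0.90, below the minimum, with cells limited to 10% mitochondrial counts), yet its level was higher still in macrophage-like cells. Eif2ak3, which encodes the endoplasmic reticulum kinase PERK, was higher by 1.08, and Herpud1, which helps degrade misfolded protein, by 1.14. Atf4 itself passed the adjusted p at 0.69 (SE 0.10) and missed the 2-fold minimum.

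Stc2, a secreted glycoprotein, was at 15.8, 15.0, 24.3, 14.6, 18.2, 9.62 and 14.1 CPM in fibroblast-like cells (3.93, SE 0.21). Vldlr, a lipoprotein receptor, was at 101, 96.5, 82.0, 75.8, 81.3, 94.3 and 96.1 CPM (2.36, SE 0.17). Chac1, an enzyme that degrades glutathione, was at 2.55, 3.24, 24.0, 3.21, 5.05, 6.45 and 3.41 CPM (2.10, SE 0.26). Flox control 3 held the highest Chac1 level by a wide margin, and the call held without that library. Sesn2, an amino acid sensor that restrains mTORC1, was higher by 1.90. Trib3, a pseudokinase that restrains ATF4, was called at 1.38, lost the call with cells limited to 10% mitochondrial counts (0.97), and stood below its endothelial-like level in every library. Gdf15 was the single member called lower, by -2.03 (SE 0.31, adjusted p 3.62e-06).

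Macrophage-like cells stood out for Jdp2, Cebpb, Gpt2 and the secreted factor Gdf15. Of 32 members 7 were called higher and 11 lower, where 18.4% and 24.4% of all genes were. Their median change was 0.17, against -0.16 over all genes. Gdf15, a cytokine that signals to the hindbrain, was at 647, 289, 662, 164, 467, 569.6 and 188 CPM (2.37, SE 0.26). Jdp2, which dimerises with AP-1 and ATF factors, was at 253, 164, 224, 138, 125, 154 and 60.7 CPM (2.23, SE 0.11). Gpt2, the mitochondrial alanine transaminase, was at 33.5, 16.9, 5.09, 25.2, 19.9, 19.4 and 24.2 CPM (2.47, SE 0.18). In these 3 genes the libraries differed several-fold among themselves.

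Cebpb was higher in macrophage-like cells by 2.12 (SE 0.14), Ppp1r15b, the constitutive eIF2 phosphatase subunit, by 1.27, Psat1 by 1.25 and Atf4 by 1.05 (SE 0.10, adjusted p 6.54e-10). Atf4 fell short of the 2-fold minimum with cells limited to 10% mitochondrial counts (0.88) and with no filter on low counts (0.98). Atf4 stood at 387 to 576 CPM there. Called lower were Ddit4, which restrains mTORC1, at 11.9, 3.92, 5.09, 4.39, 3.76, 6.15 and 3.57 CPM (-2.63, SE 0.22), and Vldlr at 10.4, 1.96, 0, 10.4, 4.91, 3.79 and 3.97 CPM (-3.12, SE 0.31).

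Other members were almost absent from macrophage-like cells. Phgdh (-3.20) was at 0.770, 0.735, 0, 0, 0, 0.237 and 0 CPM, 6 UMIs in all, and Stc2 (-2.64) at 1.15, 0.490, 1.70, 0, 0.289, 0.237 and 0.397 CPM, 9 UMIs in all. Aldh1l2 (-2.32) stood at 1.54, 1.47, 0, 0.548, 0, 0.710 and 0.397 CPM. Also called lower were Atf5 (-2.05), Nupr1 (-1.72), Chac1 (-1.59), Pck2 (-1.53), Bcat1 (-1.19) and Trib3 (-1.02). These calls included 4 that ended under other settings. Without knockout 4, Aldh1l2 was at -1.88 (adjusted p 0.0546) and Bcat1 at -0.69 (adjusted p 0.323); Bcat1 also lost its call with cells limited to 10% mitochondrial counts (-1.23, adjusted p 0.0705). Trib3 lay under the 2-fold minimum without knockout 2 (-0.81), under the stricter gate (-0.999), with at least 1000 UMIs per cell (-0.995), with DESeq2 size factors (-0.97) and in DESeq2 (-0.98). Phgdh was at -3.92 without flox control 2, and with cells limited to 10% mitochondrial counts it lost its call (-1.17, adjusted p 0.939). Part of such low counts can be free RNA, given the fibroblast markers above; how much was not tested.

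In smooth muscle-like cells, the contractile cells of the media, Vldlr, Aldh1l2 and Stc2 were higher and Trib3, Asns and Jdp2 lower. Of 32 members 6 were called higher and 14 lower, where 16.8% and 19.1% of all genes were. The 32 members had a median of -0.88, against 0.04 over all genes. Vldlr was at 187, 172, 171, 179, 207, 205 and 177 CPM (3.92, SE 0.16), a narrow range over the 7 libraries. Aldh1l2 was at 12.2, 8.13, 7.47, 10.1, 9.24, 9.06 and 7.93 CPM (2.52, SE 0.24), and Stc2 at 5.20, 5.06, 6.43, 3.04, 4.66, 6.27 and 4.76 CPM (1.93, SE 0.29). Nupr1, a small chromatin protein of the stress response, was higher by 1.38, Phgdh by 1.36 (3.08 with cells limited to 10% mitochondrial counts) and Atf5 by 1.15.

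The members called lower in smooth muscle-like cells came from several roles. Trib3 was at 1.23, 0.595, 0.695, 0.507, 0.416, 0.623 and 1.59 CPM (-2.85, SE 0.22; -1.72 with cells limited to 10% mitochondrial counts), and Asns at 1.37, 0.595, 0.869, 0.697, 1.25, 0.513 and 1.59 CPM (-2.78, SE 0.25). Jdp2 was at 25.3, 15.8, 18.2, 9.94, 13.3, 18.9 and 12.7 CPM (-2.03, SE 0.13), below its level in each of the other types. Ppp1r15a, the stress-induced phosphatase subunit, was at 324, 196, 382, 227, 174, 345 and 257 CPM (-1.68, SE 0.14), where the other types ranged from 435 to 1918 CPM. Bcat1 was at 2.05, 0.595, 1.56, 0.443, 0.583, 1.03 and 0.793 CPM (-1.58, SE 0.42). Without knockout 4 the Bcat1 value was -1.34 and lost its call (adjusted p 0.0634).

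The other members called lower were Chac1 (-1.45), Sesn2 (-1.44), Ppp1r15b (-1.38), Gdf15 (-1.26), Atf4 (-1.25, SE 0.11), Gpt2 (-1.17), Hspa5 (-1.15), Cebpb (-1.13) and Eif2ak3 (-1.05; -0.97, below the minimum, with no filter on low counts). Smooth muscle-like cells differed from the others in 2 measures that moved with these values. Their median mitochondrial share was 12.3% to 17.9% per library, against 4.73% to 9.81% in endothelial-like, 3.77% to 5.52% in fibroblast-like and 4.21% to 6.69% in macrophage-like cells. Immediate early genes, which respond within minutes and rise during tissue digestion, summed to 8054 to 15076 CPM (median 11475) in them and to a median of 22822 in endothelial-like cells. With cells limited to 10% mitochondrial counts, 7 of the 14 lower calls were lost: Atf4 (-0.67), Sesn2 (-0.50), Cebpb (-0.29), Gdf15 (-0.91), Hspa5 (-0.84), Ppp1r15a (-0.70) and Bcat1 (-0.43).

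Endothelial-like cells, the type in which the gene was deleted, showed few members above the other types. Of 32 members 2 were called higher and 10 lower, where 12.7% and 11.1% of all genes were. For the members the median was -0.55, against -0.05 over all genes. Ddit4, also known as REDD1, was at 221, 59.1, 93.3, 155, 99.4, 123 and 49.1 CPM (2.67, SE 0.18, adjusted p 2.48e-12). Trib3 was at 11.1, 11.3, 15.6, 14.5, 16.8, 16.2 and 7.37 CPM (2.50, SE 0.24, adjusted p 3.36e-09). Knockout 4 was the lowest library for both genes, and every Ddit4 value exceeded the fibroblast-like maximum of 25.8 CPM.

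Several members had few UMIs in endothelial-like cells, among them Cth (10), Gpt2 (14), Chac1 (16) and Asns (20). Psph (27 UMIs, 5.38 CPM) and Mthfd2 (30 UMIs, 5.98 CPM) had little more, and Shmt2 had 97 UMIs (19.3 CPM). Over all 5019912 endothelial-like UMIs there were 2 from Stc2 (0.398 CPM, exact Poisson 95% interval 0.0482 to 1.44), 3 from Aldh1l2 (0.598 CPM, 0.123 to 1.75), 4 from Phgdh, 6 from Bcat1 and 8 from Psat1. The fibroblast-like level was 15.4 CPM for Stc2 (14.8 to 15.9) and 11.7 CPM for Aldh1l2 (11.3 to 12.2). Intervals cover counting error only. Stc2 UMIs came from knockouts 2 and 3 and Aldh1l2 UMIs from flox control 2 and knockout 4, with 0 in the other libraries; the fitted changes of -3.23 and -2.98, both called lower, depend on the prior count at such levels. Leaving out 1 library moved the Stc2 value to -3.94 (without knockout 2) or -3.86 (without knockout 3), and the Aldh1l2 value to -4.17 (without knockout 4). Psat1, at 0, 1.41, 0, 0, 4.79, 1.70 and 0.614 CPM, was called lower by -2.42 (SE 0.46), and by -3.15 without knockout 2. Mthfd2 was lower by -2.12 and Gpt2, on 14 endothelial-like UMIs, by -1.61. The calls of Phgdh (-1.69, adjusted p 0.0278) and Bcat1 (-1.64, adjusted p 0.0346) each ended when any of 4 single libraries was left out, and under the gate without the margin (-1.28 and -1.27). For Phgdh these were flox controls 1 (-1.45) and 2 (-1.24) and knockouts 2 (-1.51) and 4 (-1.63), and for Bcat1 flox controls 2 (-1.48) and 3 (-1.57) and knockouts 2 (-1.47) and 3 (-1.49). In other settings the calls held with larger values, for Phgdh -2.33 without knockout 3 and -7.35 with cells limited to 10% mitochondrial counts, and for Bcat1 -2.62 without knockout 4 and -2.66 with that limit.

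Vldlr was at 3.69, 7.04, 0, 0, 13.2, 8.51 and 1.23 CPM in endothelial-like cells (-3.16, SE 0.34). Atf5 was at 18.4, 22.5, 10.4, 29.0, 4.79, 19.6 and 11.1 CPM (-2.29, SE 0.22). Cebpb was at 103, 29.6, 41.5, 67.7, 40.7, 28.9 and 33.2 CPM (-2.19, SE 0.20), below every macrophage-like library. Gdf15 passed the adjusted p (0.93, SE 0.31, adjusted p 0.0135) without reaching 2-fold. The kinase genes Eif2ak3 (0.02, SE 0.16) and Eif2ak4, the amino acid sensing kinase GCN2 (0.12, SE 0.18), did not pass. Eif2s1, the alpha subunit of eIF2, passed the adjusted p at -0.60 (SE 0.10). Its median of 53.2 CPM was near those of smooth muscle-like (54.7) and fibroblast-like cells (54.2), and only macrophage-like cells stood apart (95.7). Ppp1r15a, the stress-induced phosphatase subunit, was not called but had its highest median in endothelial-like cells. That median was 1310 CPM, against 981 in fibroblast-like, 824 in macrophage-like and 257 in smooth muscle-like cells. Fgf21, a secreted metabolic hormone, had 0 UMIs in endothelial-like cells, where the upper exact Poisson limit was 0.735 CPM. Over all fibroblast-like UMIs its level was 0.467 CPM, from 102 UMIs, which lies below that limit. The Fgf21 counts therefore do not show a difference between these types.

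Among the members tested, 6 were called in none of the 4 types. Cebpg, the other C/EBP partner of ATF4, had medians of 36.0 CPM in smooth muscle-like, 68.4 in fibroblast-like, 70.4 in endothelial-like and 102 in macrophage-like cells. Eif2s1 lay between 40.0 and 67.4 CPM in every library of the first 3 types and between 77.8 and 122 CPM in macrophage-like cells, a difference of 0.91 (SE 0.07) that passed the adjusted p. Xbp1, the factor of another arm of the unfolded protein response, had its lowest median in smooth muscle-like cells (80.1 CPM) and its highest in fibroblast-like cells (197 CPM). Eif4ebp1, Eif2ak4 and Psph stayed within 1 log2 unit of the other types in each test.

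**Figure D2:**
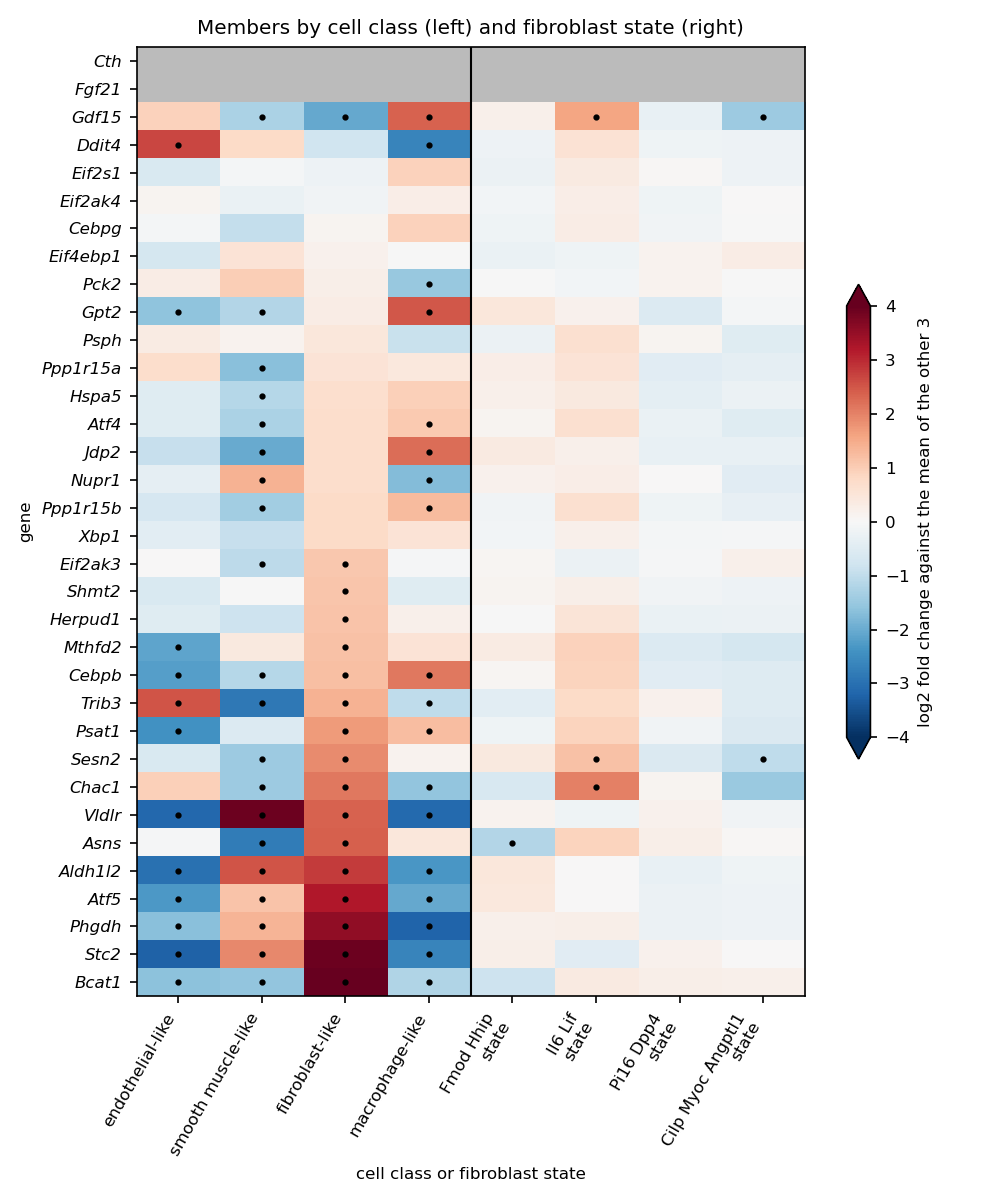
log2 fold change of each member in each cell class against the mean of the other 3 (left) and in each fibroblast state against the mean of the other 3 (right). Fibroblast-like cells have 16 members called higher, smooth muscle-like cells 14 called lower, and among the states the Il6 Lif column is the one with most members above 0.

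Fibroblast-like cells were divided by further markers into 4 states: 10787 cells with Fmod and Hhip, 7403 with at least 2 of Il6, Lif, Cxcl1 and Ptgs2, 7996 with at least 2 of Pi16, Dpp4, Cd55, Sema3c and Anxa3, and 975 with at least 2 of Cilp, Myoc and Angptl1. These markers came from an earlier clustering of the same cells, so the tests between states are not independent of how the states were drawn. No member is a state marker. Each state was tested against the mean of the other 3 in the same way, over 12215 genes and 32 members.

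In the Il6 Lif state, marked by inflammatory cytokine genes, 27 of the 32 members lay above the mean of the other states. With the 2-fold minimum 3 members were called higher and 0 lower, where 1.33% and 0.295% of all genes were. Without the minimum 23 passed higher and 3 lower, where 20.5% and 15.5% of all genes did. The median member change was 0.37, against -0.01 over all genes. The count that passed was 22 to 23 higher and 2 to 4 lower over the alternative settings.

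Chac1 stood at 4.45, 6.07, 45.0, 9.05, 8.81, 11.4 and 5.56 CPM in the Il6 Lif state. In the Fmod Hhip state it was at 1.62, 1.24, 6.28, 1.23, 4.06, 3.74 and 1.73 CPM, and in the Pi16 Dpp4 state at 3.40, 4.05, 6.19, 3.23, 2.83, 4.89 and 3.54 CPM. The Il6 Lif value was the highest of the 4 states in 7 of 7 libraries (log2 fold change 2.02, SE 0.24, adjusted p 2.92e-07). Flox control 3 was again far above the other libraries; without it the difference was 1.73, and under the stricter gate it was 4.15.

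Gdf15 was at 63.2, 39.7, 134, 109.9, 71.6, 62.1 and 24.1 CPM in the Il6 Lif state, against 48.3, 20.6, 42.7, 35.4, 39.3, 36.5 and 16.5 in the Fmod Hhip state (1.57, SE 0.15, adjusted p 7.94e-09). Sesn2 was at 39.1, 34.6, 91.6, 39.0, 35.1, 44.1 and 30.8 CPM, against 20.6, 21.7, 19.4, 11.1, 17.6, 19.8 and 16.0 in the Pi16 Dpp4 state (1.18, SE 0.13, adjusted p 5.47e-08). Both were highest in the Il6 Lif state in 7 of 7 libraries. Without flox control 3 their differences were 1.46 and 1.07.

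Below 2-fold, the enzymes Mthfd2 (0.92), Asns (0.90), Psat1 (0.90) and Psph (0.63) passed higher in the Il6 Lif state. So did the factors Cebpb (0.90) and Atf4 (0.64, SE 0.07, edgeR adjusted p 6.74e-08) and the feedback genes Trib3 (0.77), Ddit4 (0.57) and Ppp1r15a (0.55). The constitutive phosphatase subunit Ppp1r15b (0.63) and the reticulum genes Herpud1 (0.50) and Hspa5 (0.41) also passed higher. Stc2 (-0.45), Eif2ak3 (-0.23) and Vldlr (-0.17) passed lower. Atf5, Phgdh, Aldh1l2, Gpt2, Pck2 and Eif4ebp1 did not pass in either direction. Asns stood at 17.1, 18.1, 31.5, 21.1, 18.5, 20.01 and 14.4 CPM.

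Immediate early genes moved with these values. They summed to 23618 to 34482 CPM in the Il6 Lif state (median 29042). The medians were 27096 in the Fmod Hhip, 25572 in the Pi16 Dpp4 and 26200.5 in the Cilp Myoc Angptl1 state. Of 18 immediate early genes 13 passed higher and 1 lower, where 20.5% and 15.5% of all genes did. The part of the immediate early genes in the members' difference was not tested. Of the members whose promoter holds the C/EBP-ATF pattern 7 were tested, of which 5 passed higher and 1 lower; of those without it 22 were tested, of which 17 passed higher and 2 lower.

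In the Il6 Lif state, flox control 3 was the highest library for 19 of 32 members (14.0% of all genes) and knockout 4 the lowest for 15 (18.95%). These were also the smallest libraries of their groups, with 22646246 and 32941316 UMIs. Psat1 had its highest and lowest value in the same libraries, at 14.6, 11.2, 51.2, 12.3, 14.0, 21.2 and 10.9 CPM, and its difference was 0.71 without flox control 3.

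**Figure D3:**
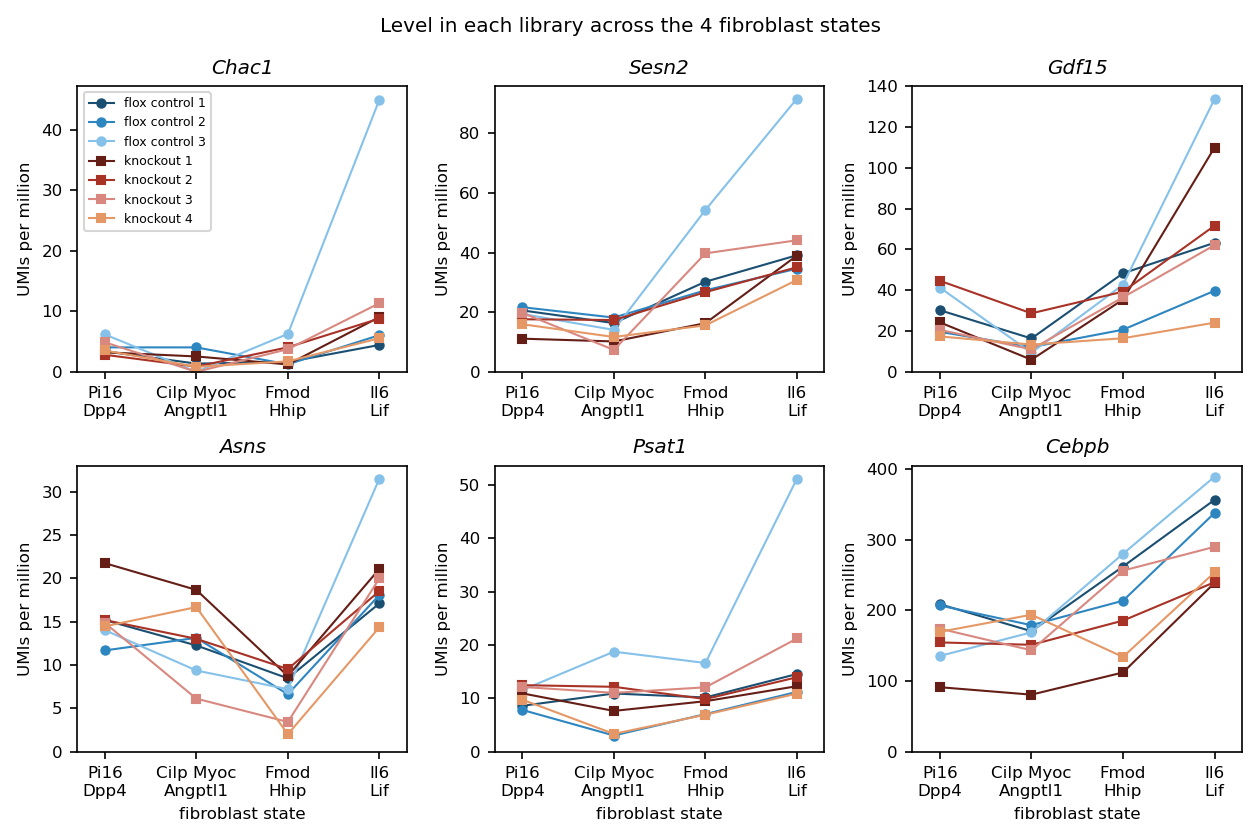
Level of selected members in each of the 4 fibroblast states, in CPM; each line joins the states of 1 library, coloured by genotype. Chac1, Sesn2 and Gdf15 are highest in the Il6 Lif state in each of the 7 libraries, with flox control 3 at the top.

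The other states held fewer members. In the Fmod Hhip state 0 members were called higher and 1 lower with the 2-fold minimum, where 1.54% and 2.6% of all genes were. That member was Asns, at 8.47, 6.63, 7.22, 8.74, 9.54, 3.43 and 2.02 CPM (-1.18, SE 0.16, adjusted p 1.13e-06), the lowest of the 4 states in 7 of 7 libraries. Without the minimum 8 passed higher and 6 lower, where 18.1% and 16.5% of all genes did. Aldh1l2 (0.46), Gpt2 (0.45), Atf5 (0.42) and Jdp2 (0.36) were among the 8, and Bcat1 (-0.82) among the 6. The median member change was 0.08, against 0.0022 over all genes.

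In the Pi16 Dpp4 state, marked by genes of adventitial progenitors, 0 members were called higher and 0 lower by edgeR with the 2-fold minimum, where 1.69% and 0.86% of all genes were. Without it 1 passed higher and 10 lower, where 13.1% and 16.5% of all genes did. DESeq2 also called 0 members with the minimum. Members had a median of -0.15, against 0.0070 over all genes. The single higher member was Vldlr (0.18), and the lower ones included Sesn2 (-0.56), Gpt2 (-0.55), Mthfd2 (-0.54), Cebpb (-0.46) and Ppp1r15a (-0.45).

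In the Cilp Myoc Angptl1 state 0 members were called higher and 2 lower, where 1.22% and 0.941% of all genes were; without the minimum 0 passed higher and 10 lower, where 6.16% and 8.36% did. Their median was -0.21, against -0.0063 over all genes. Gdf15 was at 16.4, 12.1, 9.38, 5.94, 28.7, 11.0 and 13.4 CPM (-1.46, SE 0.29, adjusted p 0.000866), and Sesn2 at 16.4, 18.2, 14.1, 10.2, 17.4, 7.35 and 11.7 CPM (-1.005, SE 0.25, adjusted p 0.00657). Both were the lowest of the 4 states in 7 of 7 libraries. Sesn2 lay at the edge of the 2-fold minimum and lost its call in 6 settings, among them without flox control 3 (-0.96) and without knockout 3 (-0.83).

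The genotype comparison asks whether loss of the transporter in endothelial cells goes with a change of the stress response in any cell type. No member and no other gene was called by edgeR in any of the 4 cell types: 0 of 8150 genes in endothelial-like, 0 of 12485 in smooth muscle-like, 0 of 15398 in fibroblast-like and 0 of 10245 in macrophage-like cells (0% each). At an unadjusted p under 0.05 there were 2 of 20 members in endothelial-like cells (484 genes in all), 2 of 31 in smooth muscle-like (562 genes), 0 of 34 in fibroblast-like (697 genes) and 2 of 25 in macrophage-like cells (790 genes). DESeq2 called 0 members in each and 0, 10, 5 and 3 genes in all. The median member change was -0.24, -0.11, -0.12 and -0.20, against -0.0034, -0.0069, -0.0097 and -0.0023 over all genes tested; these comparisons use the same 7 libraries. These medians moved with single libraries or settings: the smooth muscle-like one was 0.12 with cells limited to 10% mitochondrial counts, the fibroblast-like one -0.0075 without flox control 3, and without flox control 1 the macrophage-like one was -0.02 and the endothelial-like one -0.08.

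Where genotype groups did not overlap, the members' share was set beside that of all genes. In endothelial-like cells this held for 3 of 20 members (7.68% of all genes), in smooth muscle-like for 1 of 31 (5.13%), in fibroblast-like for 1 of 34 (4.66%) and in macrophage-like for 2 of 25 (8.25%). Shmt2 lay higher in the knockouts in endothelial-like cells. Jdp2 and Eif2s1 in endothelial-like, Psph in smooth muscle-like, Eif2s1 in fibroblast-like, and Jdp2 and Sesn2 in macrophage-like cells lay lower in the knockouts.

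In endothelial-like cells Jdp2 was at 77.5, 40.8 and 51.8 CPM in the flox controls and at 24.2, 24.0, 27.2 and 24.6 CPM in the knockouts. The means were 56.7 ± 18.8 (SD, n = 3) and 24.98 ± 1.52 (SD, n = 4), and the edgeR log2 fold change was -1.01 (SE 0.29, adjusted p 0.799). Shmt2, the mitochondrial enzyme that splits serine, was at 7.38, 15.5 and 5.18 CPM against 33.8, 20.4, 24.7 and 18.4 CPM (1.08, SE 0.42, edgeR adjusted p 0.799). Leaving out 1 library moved the Shmt2 value between 0.93 and 1.85, the highest without flox control 2; without knockout 2, 3 or 4 it was too low to be tested. Neither difference passed the correction.

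Atf4 in endothelial-like cells was at 461, 237 and 456 CPM in the flox controls and at 106, 266, 248 and 265 CPM in the knockouts, so the groups overlapped (-0.66, SE 0.34, adjusted p 0.799). Its mean was 385 ± 128 (SD, n = 3) against 221 ± 77.1 (SD, n = 4). Knockout 1, the lowest, had 49 endothelial-like cells and was also lowest in the sum of immediate early genes, at 10399.6 CPM against 18894 to 28766 CPM in the other libraries; their part in the Atf4 value was not tested. Cebpb changed by -0.42 (SE 0.42, adjusted p 0.864).

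Gdf15 varied several-fold between libraries within each group of endothelial-like cells, at 81.2, 71.8 and 259 CPM against 29.0, 557, 421 and 221 CPM (1.35, SE 0.70, adjusted p 0.799). Without the filter on low counts edgeR called Gdf15, at 1.43 (adjusted p 0.000635). The change was close to the 1.35 with the filter, so mainly the adjusted p moved. The share of all genes called without the filter is not given here. Macrophage markers, which come with a cell type high in Gdf15, summed to 232, 113 and 31.1 CPM in the flox endothelial-like cells and to 43.5, 37.1, 30.6 and 328 CPM in the knockout ones, against 19501 CPM or more in macrophage-like cells. Their part in the Gdf15 values was not tested.

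In macrophage-like cells, which were not the target of the deletion, Jdp2 was at 253, 164 and 224 CPM in the flox controls against 138, 125, 154 and 60.7 CPM in the knockouts (-0.85, SE 0.29, adjusted p 0.622). Cebpb was at 489, 470.1 and 348 CPM against 184, 309, 353 and 260.2 CPM (-0.64, SE 0.24, adjusted p 0.626), with 1 knockout above the lowest control. Psat1 changed by 0.48 (SE 0.29, adjusted p 0.711) and Atf4 by -0.20 (SE 0.19, adjusted p 0.808).

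Smooth muscle-like cells had Psph at 7.12, 5.36 and 4.69 CPM against 3.61, 2.91, 3.63 and 2.38 CPM (-0.71, SE 0.22), Shmt2 at 0.31 (SE 0.13) and Vldlr at 0.20 (SE 0.11). Cebpb changed by -0.46 (SE 0.25) and Atf4 by -0.24 (SE 0.20); the adjusted p was 0.964 for all 5 genes. In fibroblast-like cells Gpt2 (-0.51, SE 0.24), Cebpb (-0.50, SE 0.26), Fgf21 (-0.98, SE 0.55) and Atf4 (-0.31, SE 0.21) all had an adjusted p of 0.940. Of the members tested 14 of 20 in endothelial-like, 19 of 31 in smooth muscle-like, 26 of 34 in fibroblast-like and 15 of 25 in macrophage-like cells had a negative value. Without flox control 3 this held for 17 of 34 in fibroblast-like cells, and with cells limited to 10% mitochondrial counts for 8 of 23 in smooth muscle-like cells.

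**Figure D4:**
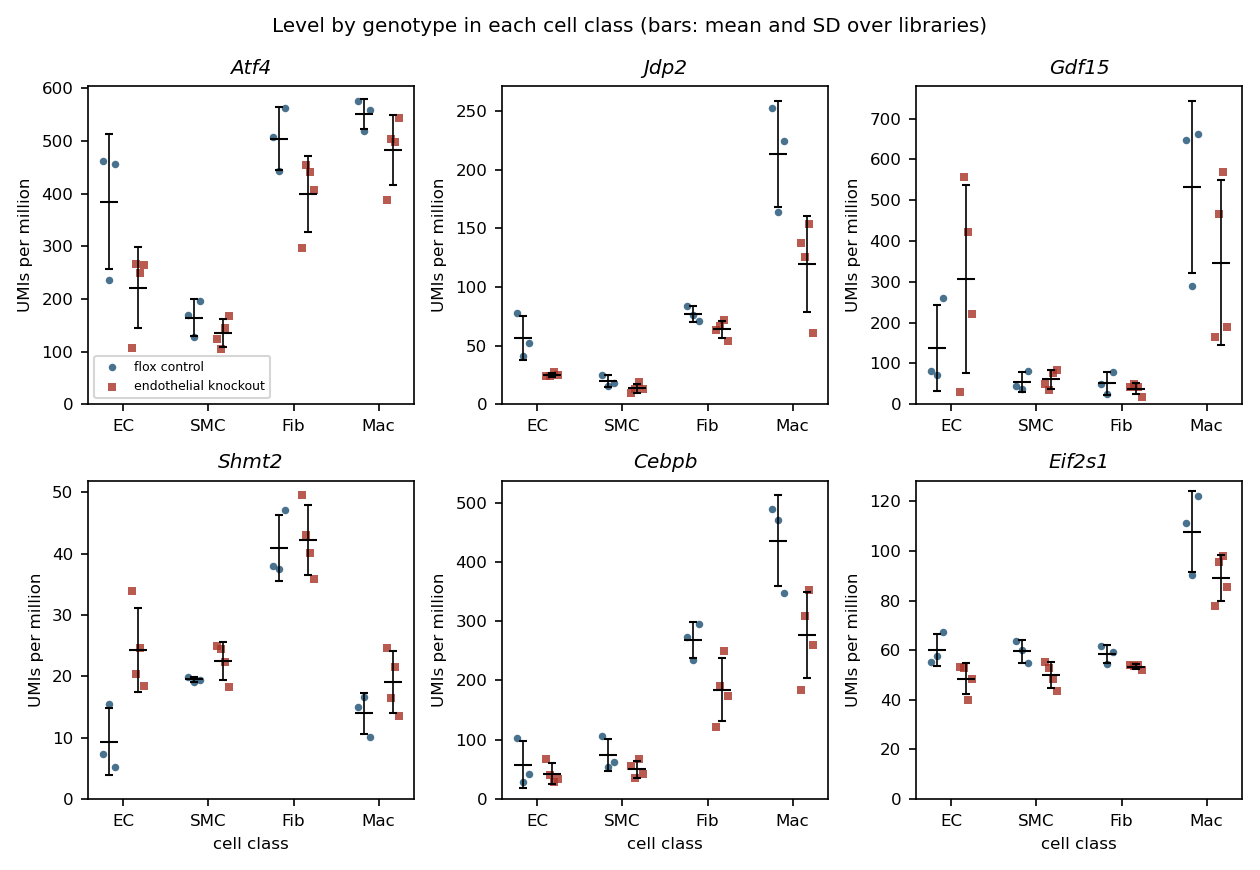
Level of selected members by genotype in endothelial-like (EC), smooth muscle-like (SMC), fibroblast-like (Fib) and macrophage-like (Mac) cells, in CPM from 0; points are libraries and bars are the mean and SD. Jdp2 does not overlap between genotypes in endothelial-like and macrophage-like cells, and Atf4 overlaps in all 4.

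Within the fibroblast states edgeR again called 0 members and 0 genes (0% of 13381, 12411, 12879 and 8619 genes in the Fmod Hhip, Il6 Lif, Pi16 Dpp4 and Cilp Myoc Angptl1 states). At an unadjusted p under 0.05 there were 1, 1, 0 and 0 members and 523, 564, 663 and 518 genes, and DESeq2 called 0 members and 8, 3, 6 and 1 genes. Groups did not overlap for 1 of 32 members in the Fmod Hhip state (4.26% of all genes), for 3 of 32 in the Il6 Lif state (5.74%), for 0 of 32 in the Pi16 Dpp4 state (5.97%) and for 1 of 28 in the Cilp Myoc Angptl1 state (7.36%).

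The 3 in the Il6 Lif state were all lower in the knockouts. Cebpb was at 356, 338 and 389 CPM against 239, 239.7, 289.7 and 254 CPM (-0.47, SE 0.15, adjusted p 0.942). Jdp2 was at 84.3, 73.3 and 79.7 CPM against 64.4, 62.9, 67.1 and 60.7 CPM (-0.27, SE 0.13, adjusted p 0.942), and Atf4 at 579, 567 and 673 CPM against 479.6, 525, 502 and 528 CPM (-0.23, SE 0.16, adjusted p 0.942). Gpt2 had -0.62. The median over all 32 members was -0.13 and turned to 0.11 without flox control 3.

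In the Fmod Hhip state Gpt2 (-0.52), Cebpb (-0.50), Atf4 (-0.31) and Aldh1l2 (0.25) had an adjusted p of 0.991. In the Pi16 Dpp4 state Bcat1 (0.32), Psat1 (0.37), Asns (0.35), Cebpb (-0.27) and Atf4 (-0.20) had adjusted p from 0.920 to 0.944. In the Cilp Myoc Angptl1 state Shmt2 (0.38, no overlap, higher in the knockouts), Vldlr (-0.30), Stc2 (-0.57), Cebpb (-0.24) and Atf4 (-0.20) had adjusted p from 0.820 to 0.923. Cebpb and Atf4 were thus negative in the 4 cell types and the 4 states in edgeR, with none passing, although both turned positive in smooth muscle-like cells limited to 10% mitochondrial counts; the states are parts of the fibroblast-like cells and share their libraries.

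**Figure D5:**
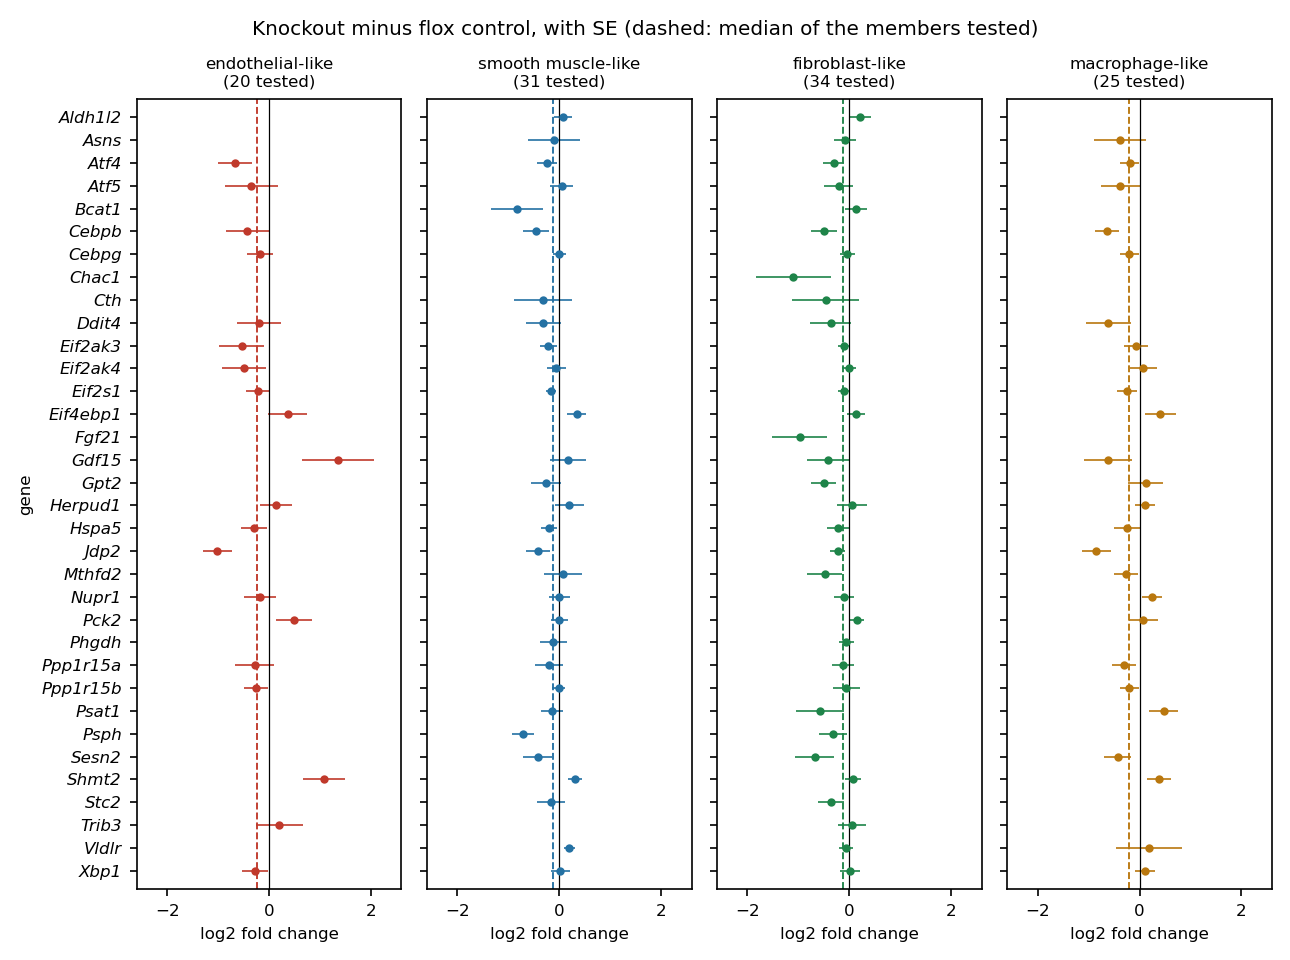
log2 fold change of each member tested, knockout minus flox control, with its SE, in the 4 cell classes; the dashed line is the median of the members tested. No member passed the adjusted p, and the medians are -0.24, -0.11, -0.12 and -0.20; the smooth muscle-like one turns to 0.12 at 10% mitochondrial counts and the fibroblast-like one is -0.0075 without flox control 3.

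Whether the genotype change differs between endothelial-like cells and another type was tested as an interaction. By edgeR 0 of 10702 genes were called against smooth muscle-like, 0 of 13634 against fibroblast-like and 0 of 10835 against macrophage-like cells (0% each), members included. At an unadjusted p under 0.05 there were 0, 3 and 1 members and 336, 523 and 386 genes, and DESeq2 called 0 genes in each. Gdf15 had the smallest unadjusted p among members in the latter 2, with differences of 1.68 (SE 0.57) against fibroblast-like and 1.87 (SE 0.48) against macrophage-like cells (adjusted p 1 for both). In fibroblast-like cells Gdf15 changed by -0.42 and in macrophage-like cells by -0.62.

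The Gdf15 interaction passed or failed depending on settings. Without the filter on low counts edgeR called it at 1.66 (adjusted p 2.48e-06) and 1.89 (adjusted p 2.96e-06). These differences were close to 1.68 and 1.87 with the filter. There the unadjusted edgeR p was 0.00917 and 0.00183, above the adjusted p without the filter. The unadjusted p therefore fell too, not the correction alone, and the reason was not tested. The share of all genes called without the filter is not given here. Without knockout 1 the edgeR difference from fibroblast-like cells was 2.18 (adjusted p 0.00286). In the other settings run it did not pass. Jdp2 differed by -0.74 and Shmt2 by 0.97 from fibroblast-like cells, the latter between 0.76 and 1.95 with 1 library left out, the highest without flox control 2. Against smooth muscle-like cells Jdp2 differed by -0.66, Shmt2 by 0.85 and Gdf15 by 1.08. Atf4 differed by -0.42, -0.36 and -0.47 and Cebpb by 0.13, 0.06 and 0.27 from smooth muscle-like, fibroblast-like and macrophage-like cells. Against macrophage-like cells Shmt2 differed by 0.78 and Gpt2, with 14 endothelial-like UMIs in all, by -1.46. With the filter and all libraries, each had an adjusted p of 1.

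The genes of the pathway that are not members followed in part. As background, 16.1% of all genes were called higher in fibroblast-like, 16.8% in smooth muscle-like, 18.4% in macrophage-like and 12.7% in endothelial-like cells, and 10.6%, 19.1%, 24.4% and 11.1% lower. Of 9 ATF4-linked amino acid transporters 8 were tested. Slc1a4, Slc1a5 and Slc6a9 were called higher in fibroblast-like and lower in endothelial-like cells. Slc1a4 and Slc6a9 were also called higher in smooth muscle-like and lower in macrophage-like cells. Slc3a2 and Slc7a11, which form the cystine transporter, were called higher in macrophage-like cells and in the Il6 Lif state (median of the list there 0.61), and both, with Slc7a1, lower in smooth muscle-like cells. Of 13 tRNA synthetases 1 was called higher (Wars) and 2 lower (Aars, Mars1) in endothelial-like cells and 0 in the other types by edgeR with the 2-fold minimum. In the Il6 Lif state 8 of the 13 passed higher and 0 lower without that minimum, where 20.5% and 15.5% of all genes did. Nars stood at 0.68, Yars at 0.68 and the median at 0.37.

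Of 14 other ATF4 targets and partners 3 were called higher and 0 lower in fibroblast-like, 4 and 3 in macrophage-like, 2 and 5 in smooth muscle-like and 1 and 4 in endothelial-like cells. In the Il6 Lif state 8 of the 14 passed higher and 1 lower (median 0.22), where 20.5% and 15.5% of all genes did. Got1 (0.84) and Sqstm1 (0.76) were among the 8. Of 12 endoplasmic reticulum chaperones and enzymes, which belong to the ATF6 and XBP1 arms of the unfolded protein response, 3 were called higher in fibroblast-like cells (Dnajc3, Hsp90b1, Pdia6), 3 higher in macrophage-like cells (Dnajb9, Edem1, Sdf2l1), 3 lower in smooth muscle-like cells (Dnajb9, Pdia6, Sdf2l1) and 1 lower in endothelial-like cells (Edem1). In the Il6 Lif state 2 of these 12 passed higher and 3 lower (median -0.06), not far from those shares of all genes. The reticulum list thus showed no clear direction there, unlike the amino acid lists. In every genotype comparison edgeR called 0 genes of each list.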

How the data were processed

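Each library came as 1 deposited matrix of raw UMI counts, genes by barcodes, not normalized by the authors. The submitters' processing notes name build mm10 and the tools STARsolo 2.7.10a, Seurat and CASAVA 1.8, without their roles. Barcodes with under 200 genes or over 25% mitochondrial counts were removed, then doublets called by Scrublet (scanpy 1.11.5; 0.869% to 2.07% of cells). A cell joined a class with at least 50% of its markers detected and a share more than 10 percentage points above the next class; a fibroblast state needed 2 of its markers. This scoring was set after the data were seen, and the members and lists were chosen with earlier results of these data known. The stricter gate asks for 1 more marker in a class and for 3 in a state (2 in Fmod Hhip, which has 2 markers). Counts were summed per library and class with at least 20 cells.

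Sums were tested with edgeR 4.0.16 in R 4.3.3 (TMM, filterByExpr, quasi-likelihood, Benjamini-Hochberg over all genes tested), with the library as a block between types, between states and in interactions, and with genotype alone otherwise, as knockout minus flox control. The fit was tested on simulated data. DESeq2 1.42.0 was an alternative, with other normalization, filters, gates, mitochondrial and UMI limits and each library left out. Members called between types or states are named, the 8 largest changes in every library; in genotype comparisons Atf4, Cebpb and the 3 smallest p-values are named, and further members were picked after their values were seen. Library numbers follow the names in the titles. All 34 members matched GENCODE M21.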

Additional observations from a re-analysis of the deposited data

Results flagged for a closer look

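In 35 knockout groups of 4 libraries (members named in the genotype comparisons, in the classes where they are named), the library at either end was set against the range of its group, a check that chance alone passes in about 1 of 20 groups. It picked out 2. Atf4 in endothelial-like cells was at 106 CPM in knockout 1, where the other knockouts lay between 248 and 266 CPM. Asns in the Pi16 Dpp4 state was at 21.8 CPM in knockout 1, where the others lay between 14.5 and 15.2 CPM.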

How the results depend on the processing

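Counts of members called kept within 1.5 times of the reported count for 263 pairs of a result and an alternative and moved further in 11. The Pi16 Dpp4 state had 1 member called with no filter on low counts. The Cilp Myoc Angptl1 state had 1 under the stricter gate, with at least 1000 UMIs per cell, under the gate without the margin (chosen after seeing the data) and with DESeq2 size factors. With no filter on low counts 1 member, Gdf15, was called for genotype in endothelial-like cells and in its difference from fibroblast-like and from macrophage-like cells. Its values there were close to those with the filter, and the share of all genes called is not given. Leaving out each library gave 10 to 13 members called in endothelial-like, 20 to 22 in smooth muscle-like, 17 in fibroblast-like and 17 to 19 in macrophage-like cells, 1 in the Fmod Hhip, 3 to 4 in the Il6 Lif, 0 in the Pi16 Dpp4 and 1 to 2 in the Cilp Myoc Angptl1 state. It gave 0 in every genotype comparison and interaction, except 0 to 1 for endothelial-like against fibroblast-like cells.

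Of single members in type and state contrasts, 981 values stayed on their side of the call rule and 38 lost the call, 12 of them with cells limited to 10% mitochondrial counts. In genotype comparisons 11 values changed sign, none of them called. In endothelial-like cells Cebpb ranged from -0.90 (flox control 2 left out) to 0.27 (flox control 1 left out). With cells limited to 10% mitochondrial counts, which leaves 1688 of 16206 smooth muscle-like cells, Atf4 turned to 0.12 and Cebpb to 0.35 there, and the Cebpb interaction with smooth muscle-like cells to -0.73. That interaction was -0.12 without flox control 2 and -0.04 without knockout 2. The Cebpb interaction with fibroblast-like cells was -0.27 without flox control 2, -0.06 without flox control 3 and -0.17 without knockout 1, and with macrophage-like cells -0.25 without flox control 2 and -0.03 without knockout 1. The highest Cebpb interactions were 0.49 with smooth muscle-like cells (without knockout 3), and 0.71 with fibroblast-like and 0.86 with macrophage-like cells (both without flox control 1). The cause was not tested.

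With the replicate number as a replicate block, 0 members were called in every genotype comparison; same-numbered libraries correlated at 0.183, 0.014 and -0.0375 in endothelial-like, 0.162, 0.159 and 0.0982 in smooth muscle-like, 0.101, -0.000273 and 0.246 in fibroblast-like and 0.00718, -0.0626 and 0.0575 in macrophage-like cells. In smooth muscle-like cells the same-numbered values were the 3 highest, ahead of 0.0796 for flox control 3 and knockout 4. Differently numbered pairs reached 0.305, 0.206 and 0.249 in endothelial-like, fibroblast-like and macrophage-like cells. No class had all 3 same-numbered values above 0.1, but smooth muscle-like cells missed that line only narrowly, at 0.0982. These values therefore do not settle whether the numbers pair libraries. The reported genotype tests took the libraries as unpaired, without excluding pairing. With the block, genotype medians were 0.0094 in the Fmod Hhip, 0.016 in the Pi16 Dpp4 and 0.021 in the Cilp Myoc Angptl1 state. Those in the Il6 Lif state and the 4 cell types stayed negative. Depth limits the endothelial-like values: 192900 to 1628316 UMIs per library, and 20 of the 34 members were high enough for the genotype test there.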

Other observations

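Smaller cell classes were not tested here and are given as values in the libraries with at least 20 such cells. Eif2ak3, which encodes PERK, stood at 371 and 564 CPM in the 2 libraries with at least 20 B cells. Both were knockouts, with at most 60 B cells each. It stood at 122 to 373 CPM in the 4 libraries with at least 20 T cells, where no library of a main class exceeded 35.6 CPM. Cebpb was at 1439 and 1817 CPM in the 2 of 7 libraries with at least 20 neutrophils, above every macrophage-like library. Both were knockouts, so no control value is at hand for B cells or neutrophils. In mast cells (5 libraries) Atf4 was at 525 to 895 CPM, Gdf15 at 113 to 490.0 CPM and Ppp1r15a at 1428 to 1593 CPM.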
